A study of Rattus norvegicus with 8 samples.

Results

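Secreted growth factors and morphogens, and the receptors that read them, were followed in the heads of E12.5 rat embryos on Affymetrix rat U34A arrays. Members were the probe sets whose single gene symbol in the platform annotation named a fibroblast growth factor (FGF), bone morphogenetic protein (BMP), transforming growth factor beta (TGF-beta), activin, Wnt, Notch, platelet-derived (PDGF), vascular endothelial (VEGF) or neuregulin ligand or receptor, or a secreted Wnt inhibitor of the Sfrp type, or 1 of 11 further genes such as Shh, Smo, Fst, Nog, Egf and Ptn. The rule found 63 of 4737 genes named on the array, with 103 of its 8799 probe sets. A probe set is a group of short oligonucleotides that report 1 transcript. Ligands took 58 probe sets of 35 genes, receptors 36 of 21 genes, and secreted inhibitors 5 of 3 genes. The other 4 matched by name alone and encode neither: Fgfr1-ps1, Fgfr1op2, Bmp2k and Tgfbrap1. The rule returned no probe set for a Wnt ligand, Ptch1 or Mdk.

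The embryos were wild-type or homozygous at Pax6, a transcription factor of the early eye and forebrain. Which allele and which strain were used is not stated in the labels. A cut through the isthmus split each head, which left midbrain, eye and nose primordia with the forebrain part and the pharyngeal arches with the hindbrain part. The 4 groups, wild-type forebrain, Pax6 homozygous forebrain, wild-type hindbrain and Pax6 homozygous hindbrain, had 2 arrays each, called 1st and 2nd. Nothing in the labels says that these came from separate litters or RNA pools, so the p-values cover only how far these arrays differed from each other, which may be technical.

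Most of these families act over short distances, and each pairs a secreted or membrane-bound ligand with a dedicated receptor. FGF, PDGF, VEGF and neuregulin bind receptor tyrosine kinases, whereas BMP, TGF-beta and activin bind pairs of serine/threonine kinase receptors and are held in check by secreted inhibitors such as follistatin and noggin. Delta and Jagged ligands on one cell activate Notch on its neighbour and so hold back neuronal differentiation. In the early brain, FGF from the isthmus and the anterior edge of the forebrain, Shh from the ventral midline and BMP from the dorsal midline and surface ectoderm pattern the neural tube.

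Dll3 was the 1 Notch-family gene that passed a test below, and Dll1, the Delta ligand that activates Notch, is set beside it. The 250 bases before their start sites, from RefSeq (GRCr8, both on the minus strand), are shown with capitals marking CANCTG, a form of the E-box read by proneural bHLH factors, searched on both strands (its reverse complement is CAGNTG, and it includes CAGCTG).

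Dll3, chr1:92697317-92697566: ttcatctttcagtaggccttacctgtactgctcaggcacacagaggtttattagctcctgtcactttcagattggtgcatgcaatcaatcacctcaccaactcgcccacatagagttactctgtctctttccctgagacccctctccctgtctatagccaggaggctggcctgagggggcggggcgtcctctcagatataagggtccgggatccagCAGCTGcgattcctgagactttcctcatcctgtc

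Dll1, chr1:64993275-64993524: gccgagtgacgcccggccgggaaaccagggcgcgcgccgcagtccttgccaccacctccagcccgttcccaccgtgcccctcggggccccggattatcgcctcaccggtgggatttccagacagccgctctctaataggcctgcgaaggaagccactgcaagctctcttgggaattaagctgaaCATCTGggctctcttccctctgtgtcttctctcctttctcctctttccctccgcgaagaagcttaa

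Each window held 1 match, CAGCTG beginning 34 bases before the start of Dll3 and CATCTG beginning 66 bases before that of Dll1. The letters occurred in 43.3% of 33469 rat promoter windows of this length and in 17 of the 50 member genes that had one. TGGGAA, the core of the site bound by the Notch effector RBPJ, had 2 matches in the Dll1 window and 0 in that of Dll3, against 22.1% of all windows with at least 1. A match describes the letters and not binding.

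Many members lay near the arrays' noise. The noise level of an array was taken as the size of its 5th percentile, since 18.3% to 22.3% of each array's intensities were below 0, and it ran from 243 to 619.8. Of the 103 probe sets, 28 (27.2%) were above noise on all 8 arrays, against 42.8% of all probe sets, and 33 (32.0%) were above it on none, against 34.2%. Above noise on all arrays were 16 of 36 receptor probe sets (44.4%) and 9 of 58 ligand probe sets (15.5%). By family, the counts above noise on all 8 arrays were 12 of 35 for BMP, TGF-beta and activin, 7 of 13 for Notch, 3 of 23 for FGF and 0 of 11 for EGF and neuregulin. No probe set of 14 genes was above noise on any array. A filter on dim probe sets left 71 member probe sets of 50 genes for testing, from 5881 over the whole array. The 13 genes with no tested probe set were Acvr1c, Bmp2k, Bmp3, Fgf2, Fgf10, Fgf14, Fgf16, Fgfr1-ps1, Inhbe, Pdgfb, Pdgfrb, Sfrp4 and Tgfb1. In bulk tissue, fewer cells of a type and less RNA per cell cannot be told apart.

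The first comparison asked which members differed between the forebrain and hindbrain parts over both genotypes. With limma and Benjamini-Hochberg adjustment over all 5881 probe sets, 2 of the 71 tested members (2.82%) had an adjusted p under 0.05, against 1.51% of all tested probe sets. Fgf17 was higher in the forebrain part, where 0.289% of all were, and Dll3 in the hindbrain part, where 1.22% were. Fgf17 passed the filter on dim probe sets only through its forebrain arrays, so its entry into the test was not independent of that direction. At an unadjusted p under 0.05 there were 14 members (19.7%) against 8.09% of all. These include both Dll3 and both Notch1 probe sets, pairs of shared sequence. The intensities of the 4 forebrain and 4 hindbrain arrays did not overlap for 8 members (11.3%), against 6.65% of all. The latter were Fgf17, Bmp7, Bmp6, Pdgfra, Ptn, both Dll3 probe sets and Fgfr1op2 (-0.78 ± 0.36), which matched by name alone.

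**Figure D1:**
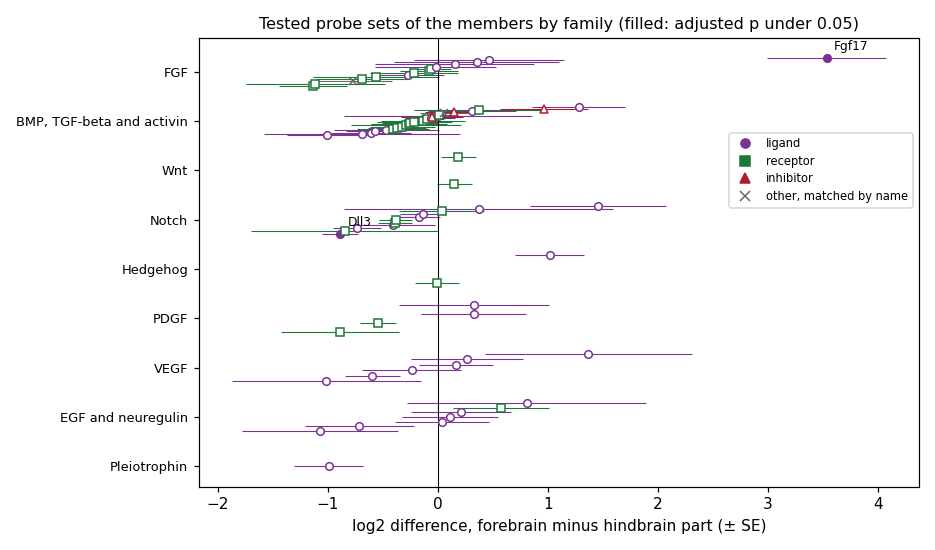
Differences between the parts for the 71 tested member probe sets, grouped by family. The axis is log2 of forebrain over hindbrain intensity with its standard error, and filled points have an adjusted p under 0.05. Fgf17 at 3.53 and 1 Dll3 probe set at -0.89 are the filled points.

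Fgf17 encodes an FGF8-subfamily ligand known from the isthmus region and the rostral forebrain. Wild-type forebrain arrays read 462 and 485, with 670.0 and 531 on the Pax6 homozygous forebrain arrays, -798 and -196 on the wild-type hindbrain arrays and -407 and -356 on the Pax6 homozygous hindbrain arrays. The probe set was thus near noise in the forebrain part, above it on 3 of 4 arrays, and below 0 on all 4 hindbrain arrays. In the test those 4 hindbrain arrays therefore stood at 1 value, with no spread between them. Set against the noise level of the hindbrain arrays, the forebrain part was 1.5-fold higher. That value counts the 1st wild-type forebrain array at its reading of 462, which was under noise, so it is no strict lower bound. The log2 difference of 3.53 ± 0.54 (SE, adjusted p = 0.014) rests on the floor that was put under low intensities. With that floor at the pooled median of all intensities (497), it was 0.13 (adjusted p = 0.858). The call was also lost without the 1st or 2nd wild-type forebrain array (adjusted p = 0.0598 and 0.0759), the 1st or 2nd Pax6 homozygous forebrain array (0.0894 and 0.0702), or the 1st or 2nd Pax6 homozygous hindbrain array (0.0596 and 0.066).

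The other tested FGF ligands were dim. Fgf1, Fgf5, Fgf7, Fgf9 and Fgf18 had log2 differences between parts from -0.27 to 0.47, none past the test. Fgf9, a ligand active in neural and mesenchymal growth, was the most often detected of them, above noise on 7 of 8 arrays. Its intensities were 629 and 462 in the wild-type forebrain, 344 and 346 in the Pax6 homozygous forebrain, 650.3 and 551 in the wild-type hindbrain and 566 and 364 in the Pax6 homozygous hindbrain. The parts overlapped.

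All 7 tested probe sets of the FGF receptors Fgfr1, Fgfr2 and Fgfr4 had a log2 difference below 0, that is, higher in the hindbrain part, and none passed the test. For Fgfr1, the broadly expressed receptor of neural progenitors, the 2 tested probe sets were at -0.07 ± 0.18 and -0.08 ± 0.27. Fgfr2 had the largest difference, at probe set Z35138cds_s_at, with 701 and 309 in the wild-type forebrain, 971 and 1298 in the Pax6 homozygous forebrain, 1040.1 and 1362 in the wild-type hindbrain and 1835 and 2456 in the Pax6 homozygous hindbrain. The hindbrain arrays were higher within each genotype, but the parts overlapped over both (log2 difference -1.14 ± 0.31, adjusted p = 0.186 by limma). The other 2 tested Fgfr2 probe sets, L19112_g_at and L19107_s_at, were at -0.69 and -0.57.

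Dll3 is a divergent Delta family member that acts inside the cell and dampens Notch signalling, and it marks newborn neurons and presomitic mesoderm. On probe set AF084576_at its intensity was 2598 and 3425 in the wild-type forebrain, 3552 and 3929.7 in the Pax6 homozygous forebrain, 6910.5 and 6323 in the wild-type hindbrain and 4992 and 6764 in the Pax6 homozygous hindbrain. Every hindbrain array was above every forebrain array, a log2 difference of -0.89 ± 0.16 (adjusted p = 0.0302). A second Dll3 probe set, AF084576_g_at, shares sequence with the first and is not independent of it. It read 3194 and 4839.6, 4239 and 4752, 5866 and 8987, and 5383 and 8507 in the same order, again without overlap, with a difference of -0.74 ± 0.22 that did not pass (adjusted p = 0.242; 0.0204 with the array number as a block).

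The call on the first Dll3 probe set was narrow. It held without the 2nd wild-type forebrain array (adjusted p = 0.039) and was lost without the 1st wild-type forebrain array (0.0852), the 1st or 2nd Pax6 homozygous forebrain array (0.132 and 0.0946), the 1st or 2nd wild-type hindbrain array (0.115 and 0.0991), or the 1st or 2nd Pax6 homozygous hindbrain array (0.06 and 0.171). It was lost as well with the higher floor (0.0868), no filter on dim probe sets (0.114), quantile normalization (0.0699) or no intensity trend (0.124). Its log2 difference stayed between -1.0 and -0.78 in these fits. Some markers of neural tissue and of muscle were also higher in the hindbrain part, where 53.2% of all tested probe sets were higher and 1.22% passed. Of 11 tested neural markers, 10 were higher there and 4 passed the test (Nefm, Nefl, Ina and Ncam1, genes of axons and neuronal adhesion). Map2 (0.02), Stmn1 (-0.04) and Vim (-0.06) hardly differed. The summed intensity of the neural markers was 112520 to 125816 on forebrain and 150608 to 186350 on hindbrain arrays. All 13 tested muscle markers were higher in the hindbrain part, 3 of them past the test (Actc1, Acta1 and Myh3), and their sums were 2877 to 6113 and 29003 to 33531. Myod1, the myogenic transcription factor, was below 0 on all 4 forebrain arrays. Actc1, Myl4, Myog and Myod1 passed the filter on dim probe sets only through hindbrain arrays, so their entry was not independent of that direction. The part of these tissues in the Dll3 difference was not tested.

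No other Notch-pathway member passed the test between the parts. Dll1 probe set U78889_at read 1600.1 and 1354 in the wild-type forebrain, 1954 and 1526 in the Pax6 homozygous forebrain, 1564 and 1737.5 in the wild-type hindbrain and 1856 and 2055 in the Pax6 homozygous hindbrain. The parts overlapped, with a log2 difference of -0.17 ± 0.19. The other tested Dll1 probe set, rc_AI136950_s_at, was above noise on 2 of 8 arrays and had the opposite sign, at 0.37 ± 1.22. Notch1, the main receptor of neural progenitors, was measured by a pair of probe sets of shared sequence. X57405_at read 2559.8 and 2242 in the wild-type forebrain, 2243 and 2324 in the Pax6 homozygous forebrain, 3613 and 3383 in the wild-type hindbrain and 2836 and 2511 in the Pax6 homozygous hindbrain. The log2 difference between the parts was -0.39 ± 0.15 on this probe set and -0.39 ± 0.16 on X57405_g_at, with adjusted p of 0.52 and 0.554 by limma. Jag1, Notch2 and Notch4 had differences of -0.41, -0.85 and 0.03, and the 2 tested Jag2 probe sets, at -0.13 and 1.45, differed in sign.

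Shh, the ventral midline morphogen, was higher on average in the forebrain part without passing the test. Its intensity was 1818 and 967 in the wild-type forebrain, 2604.5 and 1409.8 in the Pax6 homozygous forebrain, 504 and 808 in the wild-type hindbrain and 990.5 and 957 in the Pax6 homozygous hindbrain. The 2nd wild-type forebrain array lay below the 1st Pax6 homozygous hindbrain array, so the parts overlapped (log2 difference 1.02 ± 0.32, adjusted p = 0.277). Smo, the membrane protein that carries the hedgehog signal inward, had a difference of -0.01 ± 0.20, with intensities from 1680.2 to 2715.

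Among BMP ligands, Bmp7, expressed in dorsal midline and surface ectoderm, read 1090.8 and 1217 in the wild-type forebrain, 826.5 and 712 in the Pax6 homozygous forebrain, 153.5 and 569 in the wild-type hindbrain and 432 and 595 in the Pax6 homozygous hindbrain. All forebrain arrays were above all hindbrain arrays, but the difference of 1.28 ± 0.42 did not pass (adjusted p = 0.332). It passed with the floor at the pooled median (0.81, adjusted p = 0.0366). Bmp6 probe set X58830_at did the opposite, from 557 to 679 on forebrain and from 732 to 1217 on hindbrain arrays (-0.57 ± 0.27, adjusted p = 0.654). Bmp4 at -0.61 and Bmp2 at 0.00 overlapped between the parts. Tgfb2, a TGF-beta ligand of neural and mesenchymal tissue, was at -1.01 ± 0.36 (adjusted p = 0.417).

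The receptors of this superfamily mostly lay slightly to the hindbrain side. Of 11 tested probe sets of BMP, TGF-beta and activin receptors, 9 were below 0 and 2 above, and none passed. The activin receptor Acvr2b was the brightest, at 6397 to 11083.7 on forebrain and 7947 to 9032 on hindbrain arrays of probe set M87067_at (-0.10 ± 0.16). The BMP receptor Bmpr1a was at -0.25 ± 0.26. Over all receptor families, 22 of 28 tested probe sets (78.6%) were below 0, against 53.2% of all tested probe sets, with a median of -0.26 against -0.02. Of the inhibitors, noggin was at 0.15 ± 0.26 and the 2 follistatin probe sets at 0.97 ± 0.40 and -0.05 ± 0.29.

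The Wnt receptors Fzd1 and Fzd2 differed little between the parts, at 0.15 ± 0.16 and 0.19 ± 0.16, with intensities from 3353 to 5572 and from 5811 to 9084. Pdgfra, the PDGF receptor of cranial mesenchyme, read 4684 and 3539.8 in the wild-type forebrain, 3142 and 3960.3 in the Pax6 homozygous forebrain, 6457 and 4939 in the wild-type hindbrain and 5517 and 5291 in the Pax6 homozygous hindbrain on probe set rc_AI232379_at. The parts did not overlap, and the difference of -0.54 ± 0.16 did not pass (adjusted p = 0.256). Summed markers of mesenchyme and connective tissue covered 110024 to 125520 in the forebrain and 106233 to 127394 in the hindbrain. Of these 16 tested genes, 7 were higher in the forebrain part and 9 in the hindbrain part. Only Alx1 passed the test, higher in the forebrain part at 5.01 ± 0.26.

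EGF and neuregulin members, which signal through the ErbB receptors, included no probe set above noise on all arrays. The receptor Egfr was above noise on 7 of 8 arrays, with 628 and 418 in the wild-type forebrain, 932 and 466 in the Pax6 homozygous forebrain, 283 and 336 in the wild-type hindbrain and 833 and 294 in the Pax6 homozygous hindbrain. The parts overlapped (0.57 ± 0.44). The 3 tested Nrg1 probe sets were at 0.11, -0.72 and -1.07 and so differed in sign. The activin subunits Inhba (-0.07 ± 0.22) and Inhbb (0.31 ± 0.40) were above noise on all 8 arrays, and their parts overlapped. Of the VEGF ligands, which guide the vessels that enter the neural tube, the 1 Vegfa probe set above noise on all arrays was at -0.60 ± 0.25 (adjusted p = 0.578 by limma), Vegfb at 0.26 ± 0.51 and Vegfd at 0.17 ± 0.34.

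Pleiotrophin (Ptn), a heparin-binding growth factor of developing brain, was the only member of its family. It read 10979 and 13298 in the wild-type forebrain, 11486 and 3493 in the Pax6 homozygous forebrain, 16725 and 14783 in the wild-type hindbrain and 19438 and 19150.0 in the Pax6 homozygous hindbrain. The parts did not overlap, and the 2nd Pax6 homozygous forebrain array stood far below the other 3 forebrain arrays. The log2 difference was -0.99 ± 0.31 (adjusted p = 0.286 by limma) and -0.56 without that array. It was -1.42 without the 1st Pax6 homozygous forebrain array, which left only the low array in that group.

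**Figure D2:**
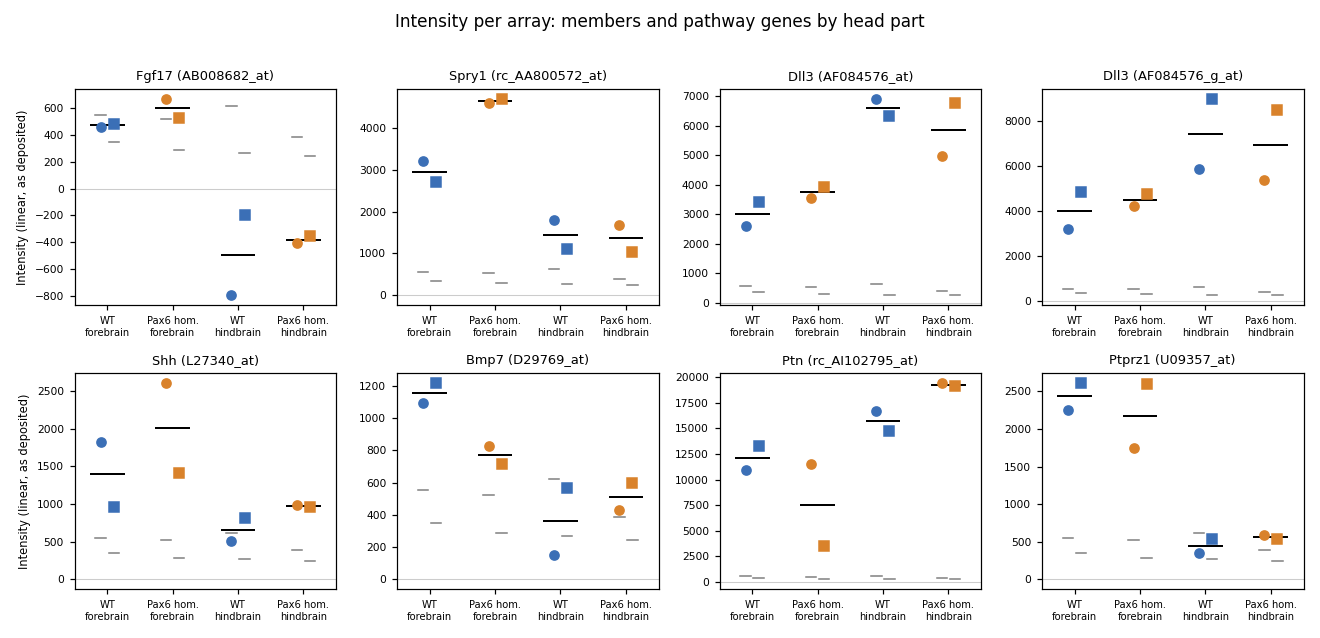
Intensity on each of the 8 arrays for Fgf17, Spry1, both Dll3 probe sets, Shh, Bmp7, Ptn and Ptprz1, with circles for 1st and squares for 2nd arrays, blue for wild-type and orange for Pax6 homozygous, black bars for group means and grey ticks for each array's noise level. Forebrain and hindbrain arrays do not overlap except for Shh, and Fgf17 lies near the noise level in the forebrain part.

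Genes that carry these signals inside the cell, or bind pleiotrophin, were listed by pathway. Of 13 tested genes of FGF and receptor kinase transduction, 5 were above 0 and 1 passed the test as higher in the forebrain part, against 0.289% of all tested probe sets. This was Spry1, a feedback inhibitor induced by FGF signalling, at 3195.5 and 2704 in the wild-type forebrain, 4583 and 4678 in the Pax6 homozygous forebrain, 1799 and 1099 in the wild-type hindbrain and 1689 and 1044.7 in the Pax6 homozygous hindbrain. The parts did not overlap, and the log2 difference was 1.43 ± 0.23 (adjusted p = 0.0183). The call was lost without the 1st wild-type forebrain array (0.0653), the 1st or 2nd Pax6 homozygous forebrain array (0.0859 and 0.0887), the 2nd wild-type hindbrain array (0.0651) or the 2nd Pax6 homozygous hindbrain array (0.0961), and with the higher floor (0.0965), no filter (0.12) or no intensity trend (0.0695).

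Of 5 tested receptors of midkine and pleiotrophin, 4 were above 0 and 1 passed the test as higher in the forebrain part. This was Ptprz1, a receptor phosphatase of neural progenitors that binds pleiotrophin. It read 2255 and 2609 in the wild-type forebrain, 1745 and 2593 in the Pax6 homozygous forebrain, 353 and 533 in the wild-type hindbrain and 589.7 and 533 in the Pax6 homozygous hindbrain. The difference of 2.20 ± 0.25 (adjusted p = 0.00253) passed in all 14 alternative analyses and ran opposite to that of Ptn. No gene passed the test in either direction among 14 genes of BMP, TGF-beta and activin transduction, 11 of Wnt, 10 of Notch and 5 of hedgehog transduction. With the array number as a block, Id1 of the BMP list and the cell-cycle gene Ccnd1 also passed. In the BMP, TGF-beta and activin list, 12 of 14 genes were below 0 (against 53.2% of all tested probe sets), with a median of -0.27. They included Id1 and Id2, inhibitors of bHLH factors induced by BMP, at -0.80 ± 0.17 and -0.47 ± 0.13 (adjusted p = 0.0742 and 0.164 by limma). The Notch target Hes1 was at 0.50 ± 0.13 (adjusted p = 0.135).

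The second comparison asked what differed between Pax6 homozygous and wild-type embryos in the forebrain part. None of the 71 members passed the limma test, against 0.0170% of all tested probe sets, and 1 member (1.41%) had an unadjusted p under 0.05, against 2.92%. With 2 arrays against 2, the arrays did not overlap for 15 members (21.1%) against 23.0% of all, 10 higher and 5 lower in Pax6 homozygous embryos (737 and 618 of all 5881 probe sets). The median log2 change was 0.04, against 0.01 over all tested probe sets. In this part, summed lens and eye markers were 10577 to 10770 in wild-type and 3729 to 5100 in Pax6 homozygous embryos, led by the lens crystallins Cryaa and Crybb3, and summed blood markers were 182329 to 195631 and 153488 to 157131.

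The 1 member with a low unadjusted p was the Fgfr2 probe set Z35138cds_s_at, at 701 and 309 in wild-type and 971 and 1298 in Pax6 homozygous forebrain. The genotypes did not overlap, and the log2 change was 1.27 ± 0.44 (adjusted p = 1 by limma). The other 2 tested Fgfr2 probe sets overlapped, at 0.30 ± 0.60 and 0.22 ± 0.81. Among ligands, Vegfd, a VEGF that acts on lymphatic and vascular endothelium, read 651 and 433 in wild-type and 1010.5 and 677.5 in Pax6 homozygous forebrain (0.64 ± 0.48). Of the 4 Vegfa probe sets, L20913_s_at (2.22 ± 1.22), M32167_g_at (0.85 ± 0.64) and rc_AA850734_at (0.25 ± 0.35) did not overlap between the genotypes, and M32167_at did. Only rc_AA850734_at was above noise on all arrays, at 769 and 657.5 against 802 and 895. The Dll3 probe set AF084576_at was also higher without overlap, at 0.32 ± 0.23. So were Dll1 rc_AI136950_s_at (2.38 ± 1.73), above noise on 1 Pax6 homozygous and no wild-type forebrain array, and Pdgfra Z14118cds_g_at (1.00 ± 0.76), above it on neither. The other tested probe sets of Dll1 and Pdgfra overlapped, at 0.23 ± 0.26 and -0.21 ± 0.23.

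Lower without overlap in the Pax6 homozygous forebrain were Fgf1 (-1.23 ± 0.96), the TGF-beta co-receptor Tgfbr3 on 1 of its 2 probe sets (-0.70 ± 0.54), Fgf9 (-0.64 ± 0.46), Bmp7 (-0.59 ± 0.60) and Fzd1 (-0.25 ± 0.23). None of these passed the test. Fgf1 was above noise on 1 of 2 wild-type and on no Pax6 homozygous forebrain array, and its change was as small as -0.12 among the alternative analyses. Ptn was at -0.93 ± 0.44, a value that rests on the low 2nd array. Shh was at 0.53 ± 0.45, with overlap between the genotypes.

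In the hindbrain part 0 of 71 members passed the limma test, against 0.0170% of all tested probe sets. Unadjusted p-values under 0.05 were found for 4 members (5.63%), against 4.49%: a follistatin probe set and both Tgfbr1 probe sets were higher, and Tgfb2 lower, in Pax6 homozygous embryos. The arrays did not overlap for 26 members (36.6%), 18 higher and 8 lower, against 34.5% of all (20.1% higher and 14.5% lower). The median change was 0.16, against 0.04 over all. Summed neural markers in this part were 181325 to 186350 in wild-type and 150608 to 158105 in Pax6 homozygous embryos. The changes of all 11 were below 0, against 45.5% of all tested probe sets. Summed blood markers were 160349 to 174359 in wild-type and 144345 to 147796 in Pax6 homozygous hindbrain, lower as in the forebrain part, with 6 of 9 genes below 0.

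Follistatin (Fst) binds and neutralises activin. Its probe set rc_AA858520_at read 110.5 and 298 in wild-type and 646 and 1056 in Pax6 homozygous hindbrain, with no overlap (2.19 ± 0.57, adjusted p = 0.989 by limma). In wild-type hindbrain it was above noise on 1 of 2 arrays, since the 110.5 lay under that array's noise level of 619.8. The change was as small as 0.73 among the alternative analyses, so its size depends on the processing. The same probe set read 628 and 919 in wild-type and 808 and 702 in Pax6 homozygous forebrain, so the wild-type hindbrain stood low among the 4 groups. Its companion probe set rc_AA858520_g_at, which shares sequence, read 652.5 and 756 against 1367 and 1061.5 in the hindbrain (0.78 ± 0.40). In the forebrain it read 976 and 1253 against 981 and 512.5, with overlap (-0.64 ± 0.40).

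Tgfbr1 encodes the type I receptor that phosphorylates the TGF-beta Smads. Probe set S81584_s_at read 282 and 534 in wild-type and 1068 and 1114 in Pax6 homozygous hindbrain (1.49 ± 0.46, adjusted p = 0.989), and L26110_at read 228 and 309 against 681 and 719 (1.40 ± 0.49, adjusted p = 0.989 by limma). The genotypes did not overlap on either. In wild-type hindbrain each was above noise on 1 of 2 arrays. With the floor at the pooled median both passed the limma test, at 1.08 (adjusted p = 0.00316) and 0.49 (adjusted p = 0.00881). That floor (497) set the L26110_at values 228 and 309 to 1 value and raised the 282 of S81584_s_at. It thereby removed spread between arrays, so these p-values cannot be set beside those of the main fit. In the forebrain part S81584_s_at was higher without overlap, at 472 and 330.0 against 607 and 607 (at least 1.38-fold, since neither wild-type array was above noise), whereas L26110_at overlapped, at -0.01 ± 0.49.

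Tgfb2 ran the other way, at 1281 and 1028 in wild-type and 605 and 324 in Pax6 homozygous hindbrain (-1.37 ± 0.51, adjusted p = 0.989). The genotypes did not overlap there, and in the forebrain its change was 0.04 ± 0.51. Both Notch1 probe sets were lower without overlap in the Pax6 homozygous hindbrain, at -0.39 ± 0.21 and -0.42 ± 0.22. Acvr2b was lower on L10640_s_at (-0.42 ± 0.23) but at -0.01 ± 0.22 on M87067_at. Fgf5 (-1.77 ± 1.02) and the endothelial receptor Acvrl1 (-1.22 ± 0.84) were lower without overlap, and above noise on no Pax6 homozygous hindbrain array. For Acvrl1, wild-type was at least 1.43-fold higher. For Fgf5 the same comparison gave 1.2-fold, which is no lower bound, since 1 of its 2 wild-type arrays was under noise. Tgfbr3 on 1 of its 2 tested probe sets (-0.54) and Nrg1 on 1 of its 3 (-0.88 ± 1.00) were also lower without overlap. The probe sets of each differed in sign. Higher without overlap were Fgfr2 Z35138cds_s_at (0.84 ± 0.44), Vegfd (0.87 ± 0.48), Vegfa rc_AA850734_at (0.61 ± 0.35) and 1 of 2 Pdgfa probe sets (1.68 ± 0.97). That Pdgfa value rests on a wild-type reading of -146.1 raised to the floor, and the other Pdgfa probe set ran the opposite way (-0.97 ± 0.68).

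**Figure D3:**
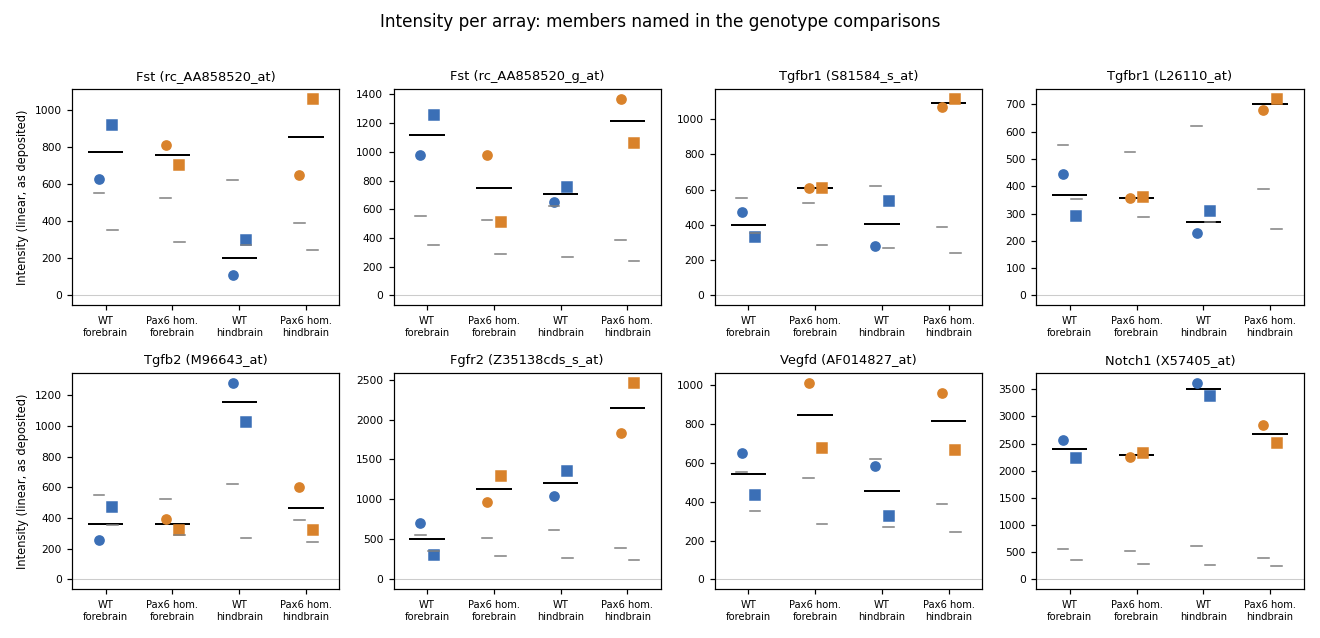
Intensity on each array for both Fst probe sets, both Tgfbr1 probe sets, Tgfb2, Fgfr2 Z35138cds_s_at, Vegfd and Notch1 X57405_at, with circles for 1st and squares for 2nd arrays, blue for wild-type, orange for Pax6 homozygous, black bars for means and grey ticks for each array's noise level. Pax6 homozygous hindbrain arrays lie above wild-type ones for Fst, Tgfbr1, Fgfr2 and Vegfd and below them for Tgfb2 and Notch1.

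Over both parts together, 0 members passed the limma test for genotype, against 0.0340% of all tested probe sets, and 3 (4.23%) had an unadjusted p under 0.05, against 5.02%. These were Fgfr2 Z35138cds_s_at (1.05 ± 0.31, adjusted p = 0.801), Tgfbr1 S81584_s_at (1.06 ± 0.33, adjusted p = 0.866) and Fst rc_AA858520_at (1.09 ± 0.40, adjusted p = 0.928). The Fst change was as small as 0.36 among the alternative analyses. Tgfbr1 S81584_s_at and Vegfd (0.76 ± 0.34) were the 2 members whose 4 Pax6 homozygous arrays all lay above the 4 wild-type arrays, 2.82% of members in either direction against 3.57% of all. Fgf5 was at -1.63, Tgfb2 at -0.67 and Notch1 X57405_g_at at -0.35, with the genotypes overlapping for each.

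A test of the difference between the parts in the genotype change called 0 members and 0 of all 5881 probe sets (0% called) by limma, with 2 members (2.82%) and 1.90% of all under an unadjusted p of 0.05. Both were the follistatin probe sets, whose change was lower in the forebrain than in the hindbrain part by -2.20 ± 0.80 and -1.42 ± 0.57 (adjusted p = 0.9995 for each). The value of -2.20, for rc_AA858520_at, shrank to as little as -0.75 among the alternative analyses. Tgfb2 was at 1.42 ± 0.73, Acvr2b L10640_s_at at 0.57 ± 0.33, Dll3 AF084576_at at 0.51 ± 0.32 and Tgfbr1 L26110_at at -1.41 ± 0.70. No gene of the 6 pathway lists passed the test for genotype in either part, over both, or for this difference.

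**Figure D4:**
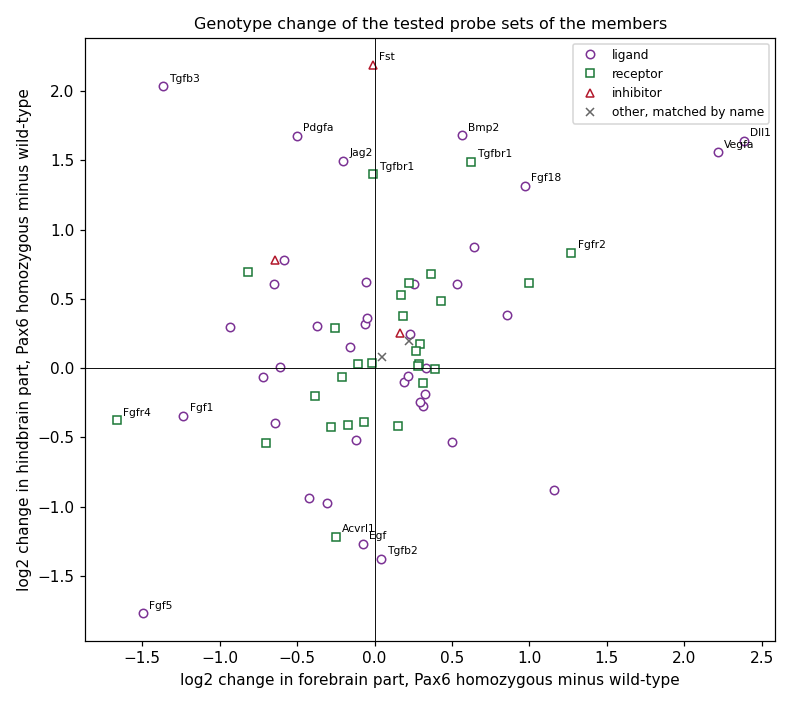
Change with genotype (log2 of Pax6 homozygous over wild-type intensity) in the forebrain part on the horizontal axis and the hindbrain part on the vertical axis for the 71 tested member probe sets, with symbols where either exceeds 1.2 in size. No point passed the test in either part, and the Fst probe sets lie at -0.01 and -0.64 in the forebrain and at 2.19 and 0.78 in the hindbrain.

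Probe sets of one gene did not always run the same way. Of 17 genes with at least 2 tested probe sets, all had 1 sign for 11 in the comparison of parts, 11 for genotype in the forebrain and 9 for genotype in the hindbrain. Replicate arrays of one group differed by a median of 1.33-fold to 1.52-fold over tested members, and by 1.2-fold to 1.32-fold over the 28 members above noise on all arrays, against 1.23-fold to 1.35-fold over all tested probe sets.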

How the data were processed

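Per the labels' protocols, poly(A) RNA was reverse-transcribed from a T7-oligo(dT) primer, and biotin-labelled cRNA was hybridised to rat U34A arrays. The authors deposited 1 linear intensity per probe set and array, and their trimmed means lay between 2504.1 and 2504.8. What software and scaling made them was not given in the sources used here. No further normalization was applied.

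Of 8799 probe sets, 59 were array controls and were left out. The platform annotation gave 7018 probe sets 1 symbol and 308 several, and listed none for 1473. All 103 members matched RefSeq by Entrez identifier.

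Deposited intensities below the pooled 25th percentile (45.9) were set to it before log2 was taken. Testing took probe sets that passed the pooled 40th percentile (255) on 2 or more arrays, with limma 3.58.1 in R 4.3.3: 4 group means, array-wide variance moderation with an intensity trend, and Benjamini-Hochberg adjustment over 5881 probe sets. Scripts were tested on simulated data. "At least N-fold" sets the brighter group's mean log2 against that of a group never above noise, with each of its arrays at the noise level.

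The members, gene lists and tests were chosen with earlier results of these data known. Named members are those past the threshold, filled to 8 per direction from those of smallest p without overlap (3 per direction, of smallest p, for both parts together and for the difference between parts), the brightest probe set per family and role, and all probe sets of those genes. Not every probe set so picked has its values printed. Of 4 tested forebrain markers, all were higher in the forebrain part, and 3 passed the test there (Lhx2, Nkx2-1 and Dlx5), against 0.289% of all tested probe sets. Of 5 tested hindbrain markers, 4 were higher in the hindbrain part, and 2 passed there (Hoxa5 and Hoxd3), against 1.22% of all. Hoxc4 ran the other way, at 1.73 ± 0.91, without passing. Hoxa5, Hoxd3, Phox2a and Egr2 passed the filter on dim probe sets only through hindbrain arrays, and Otx1 and Hoxc4 only through forebrain arrays. The entry of these markers into the test was thus not independent of their direction. Summed endothelium markers ran from 3270 to 8014 over all arrays.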

Additional observations from a re-analysis of the deposited data

How the results depend on the processing

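The alternatives were a higher floor, no filter and a stricter filter on dim probe sets, quantile normalization, no intensity trend, the array number as a block, leaving out each array, and, for genotype within a part, only the groups compared (not run where all 8 arrays enter). A group left with 1 array was assumed to vary like the others. Of 734 values for 51 named results, 693 kept direction and side of the threshold, 8 came to exactly 0 (7 with the higher floor, 1 without the 1st Pax6 homozygous forebrain array), 26 lost the call, 7 gained it and 0 reversed. Members called between the parts numbered 2, 1 with a stricter filter (Dll3), 1 with quantile normalization, 1 without the trend (both Fgf17) and 0 to 1 without single arrays. The floor at the pooled median gave 3, Bmp7 and both Tgfbr1 probe sets, sharing 0 with the main pair. That floor also called both Tgfbr1 probe sets, 2 members each, for genotype in the hindbrain, over both parts and for the difference between parts. It sets dim arrays to 1 value and so removes spread between them, which limits what these calls show. Without a filter, Inhbe was the 1 member called for genotype in the hindbrain. No alternative called a member for genotype in the forebrain. Pathway genes called between the parts numbered 2, 1 each with the higher floor, no filter or no trend, and 1 to 2 without single arrays. Ptprz1 passed in each alternative.

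Same-numbered arrays of different groups deviated together (r = 0.275 to 0.465 across 5881 probe sets, which are not independent), but the labels tie the number to no litter or batch. With the replicate block, 3 members passed between the parts (Fgf17 and both Dll3 probe sets), as did 4 pathway genes (Spry1, Ptprz1, Id1 and Ccnd1) and 139 rather than 89 of all probe sets. All probe sets called for genotype in the hindbrain numbered 1, against 15 with the higher floor, 22 without the filter and 5 without the trend. Over both parts together they were 2, against 10 with the higher floor and 19 without the filter. For the difference between parts they were 0, against 8, 13 and, without the trend, 4. Signal over background limits the dim members, since 33 of 103 were above noise on no array, and 2 arrays per group limit every test.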

Other observations

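All 1st arrays were above all 2nd arrays, whichever their group, for 8 of 71 tested members (11.3%, against 14% of all tested probe sets). These were Acvr1, Acvr1b, Fgf7, Notch2, Notch4, Nrg2, Tgfbrap1 and the Fgfr4 probe set M91599mRNA_g_at. Vegfb was the 1 member with all 1st arrays below the 2nd (1.41%, against 5.10%). For Notch4 the 1st arrays read 1119, 1062, 896 and 1047 and the 2nd 722, 446, 759 and 492, in the order wild-type forebrain, Pax6 homozygous forebrain, wild-type hindbrain and Pax6 homozygous hindbrain.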
